A study of Mus musculus with 39 samples.

Results

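Mouse liver after 3 weeks of Dex (dexamethasone, a synthetic glucocorticoid) was compared with mouse liver after 3 weeks of Cort (corticosterone, the natural glucocorticoid of rodents). All livers labelled with either of these treatments were taken, 5 Dex and 8 Cort livers, which are 13 of the 39 RNA-seq libraries of the series. The 5 Dex livers came from 3 E47KO and 2 wildtype mice that drank water with 10 µg/ml Dex, and the 8 Cort livers from 4 E47KO and 4 wildtype mice that drank water with 100 µg/ml Cort. E47KO mice are E47-/- in all tissues, so they lack one splice form of Tcf3 (the E2A gene, encoding basic helix-loop-helix E proteins), and the wildtype mice are E47+/+. All mice were males on a C57BL/6 background, aged 10 to 16 weeks, kept on chow and killed after a glucose tolerance test (GTT). Read counts per gene were compared between the steroids with genotype as a covariate. The steroid coincided with the experiment. Dose, animals, library label, depth, file layout, counting program and the set of genes listed all differed between Dex and Cort. None of these can be told apart from the steroid itself. Levels in 11 untreated livers, which were not taken after a GTT, are given beside some results as a further point of reference and enter no test.

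Glucocorticoids act through the glucocorticoid receptor (GR, encoded by Nr3c1), a nuclear receptor that binds DNA once it has bound its ligand and then raises or lowers transcription of nearby genes. In liver it is known for driving genes of gluconeogenesis, amino acid breakdown and lipid handling, and for restraining inflammatory genes. Corticosterone also binds the mineralocorticoid receptor, is carried in blood by corticosteroid-binding globulin (Serpina6) and is regenerated in liver by the enzyme 11β-HSD1 (Hsd11b1). Dexamethasone is more selective for GR, is bound poorly by that globulin, and is also known as a ligand of the xenobiotic receptor PXR in mice.

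Total counts in genes were 17.5 to 21.5 M in the Dex and 37.8 to 54.6 M in the Cort libraries (M, mega). Treatment separated the libraries along the leading principal component, which held 54.5% of the variance. The animal numbers recorded with the libraries fall into a low and a high range within each treatment. The low numbers are Dex E47KO replicates 1 and 2 and wildtype replicate 1, and Cort wildtype replicate 1 and E47KO replicates 1 and 2. The other 2 Dex and 5 Cort livers have high numbers, and no source used here says what the ranges stand for. The next component (14.3%) separated the low from the high numbers in Cort livers, and the one after it (8.01%) did so in Dex livers. Levels are given in CPM (counts of a gene per M counts of its library). Values of the Dex livers are listed in the order E47KO replicates 1, 2 and 3 and wildtype replicates 1 and 2, so that the third and the last value belong to high-number animals. The 8 Cort livers are given as lowest to highest with the median.

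Nearly as many genes were higher as were lower in Dex liver. Of 15591 genes tested, 7462 (47.9%) passed an adjusted p of 0.05 (edgeR's quasi-likelihood test, Benjamini-Hochberg), 3657 of them higher in Dex (23.5% of genes tested) and 3805 lower (24.4%). At least 2-fold differences made up 2176 of these (14%), 1098 higher (7.04%) and 1078 lower (6.91%). The median log2 fold change over all genes tested was -0.03. At an unadjusted p of 0.05 the count was 8553 (54.9%). These shares are the background against which the gene groups below are read. Fits to part of the livers have other backgrounds. The high-number Cort animals alone gave 6534 of 14794 genes called, and the low-number ones 5534 of 14508. With the low-number Dex animals alone the count was 6775 of 16280. Wildtype livers alone gave 3366 of 15109 and E47KO livers alone 4041 of 14512. List counts from such fits are therefore not on 1 scale with those of all 13 livers. For 3599 genes (23.1%), the 5 Dex and the 8 Cort livers did not overlap. List members named below were mostly chosen for a small adjusted p, which favours groups without overlap.

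Tcf3, Nr3c1 and Hsd11b1 differed by less than 2-fold between the steroids. Tcf3, whose counts do not distinguish the E47 splice form from E12 and so do not check the genotype, was at 15.5, 15.5, 12.4, 11.8 and 13 CPM in Dex and 15.3 to 19.8 CPM (median 17.6) in Cort livers, log2 fold change -0.38 ± 0.08 (SE), adjusted p = 0.00259. The groups overlapped. Nr3c1 was at 90.3, 85.5, 81.1, 83.3 and 93.7 CPM in Dex livers, all above the 62.2 to 78.7 CPM (median 70.6) of the Cort livers, log2 fold change 0.32 ± 0.07 (SE), adjusted p = 0.00259. Hsd11b1 was at 479.6, 558, 749.6, 587 and 417 CPM in Dex and 694.3 to 1003 CPM (median 762) in Cort livers, log2 fold change -0.47 ± 0.14 (SE), adjusted p = 0.013, with E47KO replicate 3 inside the Cort range. Of 19 genes for corticosteroid receptors, steroid metabolism and receptor cofactors, 4 were higher and 8 lower in Dex liver (median log2 fold change -0.25). The corepressor Ncor1 (0.56 ± 0.07, log2 ± SE) and the coactivator Ncoa2 (0.53 ± 0.07) were higher. Fkbp4, an immunophilin of the receptor's chaperone complex (-0.82 ± 0.13), was lower. Serpina6, corticosteroid-binding globulin, had the largest change of the list. It was at 9.54, 71.3, 27.9, 23.8 and 5.86 CPM in Dex livers, below the 83.8 to 273 CPM (median 179) of all Cort livers, log2 fold change -2.84 ± 0.53 (SE), adjusted p = 0.000701, and at 169 to 583 CPM in untreated livers.

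Among the E proteins and their Id inhibitors, 4 of 7 were higher and 1, Tcf3, was lower. Tcf12 (HEB), an E protein that pairs with E2A proteins, was at 41.2, 33.2, 28.8, 37.5 and 33.3 CPM against 19.2 to 22.5 CPM (median 20.2) in Cort livers, log2 fold change 0.76 ± 0.08 (SE), adjusted p = 1.09e-05, without overlap. Tcf4 (E2-2) differed less (0.34 ± 0.09) and overlapped. Id1, which blocks DNA binding by E proteins, was at 15.5, 19, 19.9, 17.7 and 13.4 CPM in Dex and 2.75 to 14.9 CPM (median 6) in Cort livers, log2 fold change 1.32 ± 0.28 (SE), adjusted p = 0.00189, with wildtype replicate 2 inside the Cort range. The median of the list was 0.34. Against the low-number Cort animals alone 2 members were higher and 2 lower (median 0.24), and against the high-number ones 4 and 1 (median 0.72).

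Of the 12 protein-coding genes with the largest higher levels in Dex liver, 6 had a median below 1 CPM in Cort livers. Timp4, an inhibitor of metalloproteinases (ENSMUSG00000030317, chr6:115241892-115252205 in GRCm38, minus strand), was at 29.3, 3.58, 78.2, 47.8 and 505 CPM in Dex and 0 to 0.289 CPM (median 0.0926) in Cort livers, log2 fold change 10.44 ± 0.92 (SE), adjusted p = 2.99e-06. Every Dex liver was above every Cort liver, and the Dex livers themselves ranged widely, with wildtype replicate 2 highest and E47KO replicate 2 lowest. In untreated libraries, which keep strand, 12.8% of the Timp4 reads were from the opposite strand. Pnmt, the enzyme that makes adrenaline from noradrenaline, was at 3, 1.13, 16.1, 4.09 and 65.4 CPM against 0 to 0.404 CPM (median 0), log2 fold change 7.77 ± 1.09 (SE), adjusted p = 8.87e-05. Styk1, a kinase-like membrane protein, was at 7.49, 6.12, 18.4, 17.6 and 171 CPM against 0.0247 to 1.2 CPM (median 0.079), log2 fold change 7.58 ± 0.65 (SE), adjusted p = 2.75e-06. For all 3 genes wildtype replicate 2 was the highest Dex liver. Fitted folds of genes this low in Cort liver depend on the prior count of the test.

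Other genes of this set were high in each Dex liver. Igfbp1, a secreted binding protein of insulin-like growth factors that insulin represses, was at 2035, 953, 1278, 1518 and 1839 CPM in Dex livers and 7.49 to 40.6 CPM (median 21.1) in Cort livers, log2 fold change 6.09 ± 0.35 (SE), adjusted p = 1.33e-07, 68-fold higher. Untreated livers held 3.8 to 99.4 CPM, all below the Dex livers. Gdf15, a stress-induced hormone of the TGF-β family, was at 278, 253, 259, 282 and 427 CPM against 2.4 to 15.9 CPM (median 6.64), log2 fold change 5.47 ± 0.35 (SE), adjusted p = 2.96e-07. Cyp2b10, a drug-metabolising cytochrome P450 that serves as a marker of the receptor CAR, was at 1866, 1407, 1189, 1524 and 2288 CPM against 9.61 to 148 CPM (median 48.3), log2 fold change 5.04 ± 0.48 (SE), adjusted p = 5.61e-06, and at 0.0844 to 5.93 CPM in untreated livers. Every Dex and every Cort liver lay above the untreated range. Ppp1r3g, a glycogen-targeting subunit of protein phosphatase 1, was at 21, 39.8, 22.9, 39.8 and 15.8 CPM against 0 to 1.44 CPM (median 0.138), log2 fold change 6.78 ± 0.64 (SE), adjusted p = 5.40e-06. Oxct1, the enzyme of ketone body use that adult liver normally lacks, was at 78, 59.8, 109.5, 67 and 175 CPM against 2.22 to 4.84 CPM (median 3.92), log2 fold change 4.74 ± 0.28 (SE), adjusted p = 1.33e-07.

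The remaining 4 of the 12 genes were Moxd1 (6.20 ± 0.96), Mup11 (4.69 ± 0.69), Lars2 (4.68 ± 0.66) and Serpina5 (4.63 ± 0.45). Mup11 belongs to a cluster of near-identical genes among which reads can be shared, and its value is uncertain for that reason. Lars2, the mitochondrial leucyl-tRNA synthetase, was at 149, 213, 3066, 337 and 2616 CPM in Dex and 39.7 to 68.8 CPM (median 48) in Cort livers. The 2 high-number Dex animals held far more Lars2 than the other 3 and lay in the range of untreated livers (2529 to 3995 CPM), so that its level differed between the sets of Dex animals as well as between the steroids.

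The promoter of Igfbp1 is shown because it holds the best known insulin-responsive FOXO sites of liver. The stretch runs from 250 bases before to 50 after the RefSeq start (GRCm38.p6, chr11:7197537-7197836, plus strand), with matches to CAAAANAA on either strand in capitals. The letters CAAAANAA occur in the promoters of 3 of 13 matched genes of insulin signalling and IGF binding (Igfbp1, Irs1 and Irs2) and in 7.95% of all 32851 promoters of this length. A match is a description of the letters and not evidence of binding.
Igfbp1: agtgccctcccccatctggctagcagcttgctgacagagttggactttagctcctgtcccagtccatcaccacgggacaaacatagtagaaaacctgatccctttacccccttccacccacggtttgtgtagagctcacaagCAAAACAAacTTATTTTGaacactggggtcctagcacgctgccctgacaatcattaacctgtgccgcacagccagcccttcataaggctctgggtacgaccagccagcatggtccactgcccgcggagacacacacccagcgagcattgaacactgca

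**Figure D1:**
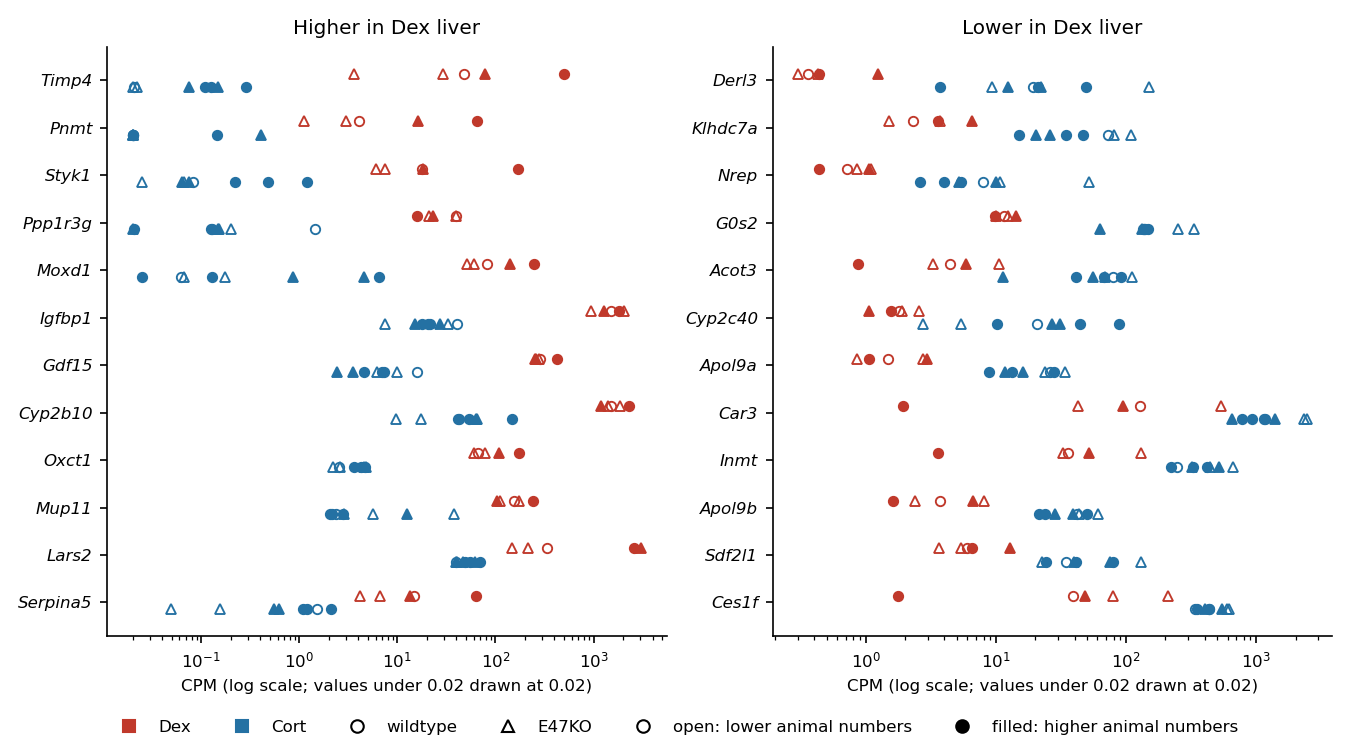
Level of the 12 protein-coding genes with the largest higher (left) and lower (right) values in Dex liver, in CPM on a log axis, 1 point per liver (red Dex, n = 5; blue Cort, n = 8; circles wildtype, triangles E47KO; open symbols are the low animal numbers of each treatment). For each gene shown the red and blue points do not overlap, which the choice of these genes required.

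Derl3 had the largest fold change of the 12 protein-coding genes chosen as lower in Dex liver. This gene, a part of the machinery that removes misfolded proteins from the endoplasmic reticulum (ER), was at 0.299, 0.423, 1.23, 0.358 and 0.436 CPM in Dex and 3.72 to 150.3 CPM (median 20.1) in Cort livers, log2 fold change -6.14 ± 1.04 (SE), adjusted p = 0.000352 (ENSMUSG00000009092, chr10:75893413-75895941, plus strand). E47KO Cort replicate 2 was the highest of the Cort livers. Sdf2l1, an ER chaperone component, was at 5.34, 3.62, 12.8, 5.98 and 6.54 CPM against 22.5 to 130.1 CPM (median 40.2), log2 fold change -3.05 ± 0.48 (SE), adjusted p = 0.000213. G0s2, an inhibitor of the triglyceride lipase ATGL (ENSMUSG00000009633, chr1:193272161-193273217, minus strand), was at 10.0, 12.3, 14.2, 11.6 and 9.85 CPM against 62.7 to 330.4 CPM (median 138), log2 fold change -3.87 ± 0.35 (SE), adjusted p = 3.38e-06. Its untreated range was 15.3 to 97.3 CPM, above all Dex livers. Acot3, a peroxisomal acyl-CoA thioesterase, was at 10.5, 3.29, 5.86, 4.45 and 0.872 CPM against 11.2 to 111.4 CPM (median 68.1), log2 fold change -3.76 ± 0.59 (SE), adjusted p = 0.000193.

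Several genes of this set were high in untreated liver and lowest in Dex liver. Car3, carbonic anhydrase 3, was at 42.7, 538, 94.2, 128 and 1.93 CPM in Dex, 648 to 2432 CPM (median 1158) in Cort and 2193 to 5475 CPM in untreated livers, log2 fold change -3.34 ± 0.84 (SE), adjusted p = 0.0054. Inmt, an amine N-methyltransferase, was at 32.4, 130.1, 51.4, 35.9 and 3.55 CPM against 219 to 657 CPM (median 371), log2 fold change -3.23 ± 0.53 (SE), adjusted p = 0.0003, and untreated livers held 308 to 1449 CPM. Ces1f, a carboxylesterase, was at 79, 210.4, 48.6, 38.6 and 1.75 CPM against 335 to 617 CPM (median 431), log2 fold change -3.02 ± 0.64 (SE), adjusted p = 0.00177. In all 3 genes wildtype Dex replicate 2 was far below the other Dex livers. Klhdc7a (-3.89 ± 0.56), Nrep (-3.88 ± 0.64), Cyp2c40 (-3.74 ± 0.77) and the neighbouring paralogues Apol9a (-3.51 ± 0.42) and Apol9b (-3.20 ± 0.36), which can share reads, completed the 12.

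Of the classical GR target genes more were higher in Dex liver than the background gives. Of 19 tested, 12 were higher and 0 lower (median log2 fold change 1.31, against 23.5% and 24.4% of all genes). Sult1e1, oestrogen sulfotransferase, was at 379, 286, 351, 421 and 587 CPM in Dex and 3.42 to 94.3 CPM (median 21.1) in Cort livers, log2 fold change 4.35 ± 0.58 (SE), adjusted p = 5.87e-05, and at no more than 1.13 CPM in untreated livers. Sgk1, a serum- and glucocorticoid-induced kinase, was at 47, 43.7, 33.1, 44.7 and 60.0 CPM against 11.1 to 23.6 CPM (median 16), log2 fold change 1.51 ± 0.16 (SE), adjusted p = 1.19e-05. Cebpd, a transcription factor of the C/EBP family, was at 18.3, 13.9, 11.2, 15.5 and 30.6 CPM against 2.27 to 7.93 CPM (median 3.65), log2 fold change 2.10 ± 0.29 (SE), adjusted p = 7.72e-05. Klf9, a zinc-finger factor, was at 183, 181, 117, 198 and 199 CPM against 36.5 to 86.7 CPM (median 68.8), log2 fold change 1.44 ± 0.21 (SE), adjusted p = 0.000115. For these 4, chosen for the smallest adjusted p of the list, the groups did not overlap. No other of the 19 members was free of overlap. Among all genes tested 23.1% did not overlap, 11.7% with all Dex livers above. Mt1, a metallothionein (log2 fold change 2.03 ± 0.32 (SE), adjusted p = 0.000209), and Pdk4, which blocks pyruvate entry into the citric acid cycle (log2 fold change 2.72 ± 0.54 (SE), adjusted p = 0.00112), overlapped through the same liver, Cort wildtype replicate 1.

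Some GR targets in common use as a readout of the receptor did not pass the test. Fkbp5, the immunophilin that limits GR, was at 424, 367, 80.7, 419 and 620.4 CPM in Dex and 53.8 to 514 CPM (median 283) in Cort livers, log2 fold change 0.57 ± 0.56 (SE), adjusted p = 0.422. Tsc22d3 (GILZ) was at 67.8, 90.7, 36.3, 78.2 and 63.6 CPM against 43.7 to 273 CPM (median 137), log2 fold change -0.998 ± 0.43 (SE), adjusted p = 0.0725. Per1 was at 39.4, 38.4, 14.7, 39.9 and 55.9 CPM against 14.3 to 110.2 CPM (median 58.3), log2 fold change -0.49 ± 0.47 (SE), adjusted p = 0.416. Dex E47KO replicate 3 held the lowest Fkbp5, Tsc22d3 and Per1 of the Dex livers. Against the 5 high-number Cort animals alone, 8 of the list were higher and 2 lower in Dex, while against the 3 low-number Cort animals alone 16 were higher and 0 lower.

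In gluconeogenesis, 4 of 11 genes were higher and 1 lower in Dex liver (median -0.08). Against the high-number Cort animals alone 3 were higher and 3 lower (median -0.24), and against the low-number ones 5 and 0 (median 0.31). Ppargc1a, the coactivator of the fasting programme, was at 59.9, 56.1, 38, 59.6 and 58 CPM in Dex and 6.15 to 13.7 CPM (median 9.47) in Cort livers, log2 fold change 2.44 ± 0.17 (SE), adjusted p = 6.69e-07, 5.42-fold higher. Pck1, the rate-limiting enzyme PEPCK, was at 4734, 4416, 5537, 5206 and 6346 CPM against 1241 to 4337 CPM (median 2925), log2 fold change 1.02 ± 0.28 (SE), adjusted p = 0.00828, without overlap. Got1, cytosolic aspartate aminotransferase, was at 306, 492.8, 219, 266 and 209.9 CPM against 67.1 to 206 CPM (median 85.2), log2 fold change 1.48 ± 0.25 (SE), adjusted p = 0.000364. Pcx, pyruvate carboxylase, was lower (log2 fold change -0.33 ± 0.10 (SE), adjusted p = 0.0146). G6pc, glucose-6-phosphatase, did not pass the test at 98.5, 127, 139.5, 113 and 89.6 CPM against 73.4 to 218 CPM (median 153), log2 fold change -0.36 ± 0.24 (SE), adjusted p = 0.234.

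Genes of glucose use and glycogen were lower more often than higher, with 1 of 15, Ppp1r3g, higher and 6 lower (median -0.24). Mlxipl (ChREBP), the glucose-sensing transcription factor, was at 148, 210.5, 149, 157 and 146 CPM in Dex and 298 to 548 CPM (median 350.4) in Cort livers, log2 fold change -1.26 ± 0.14 (SE), adjusted p = 1.22e-05. Its target Pklr, liver pyruvate kinase, was at 45.7, 45.2, 69.4, 59.3 and 104 CPM against 104 to 218 CPM (median 166), log2 fold change -1.32 ± 0.20 (SE), adjusted p = 0.000155. Gckr, the regulatory protein of glucokinase, was at 135, 170.0, 176, 152 and 158 CPM against 279 to 340.3 CPM (median 294), log2 fold change -0.95 ± 0.08 (SE), adjusted p = 2.99e-06. None of these 3 overlapped, but the highest Dex liver for Pklr lay just under the lowest Cort liver.

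Of 17 genes of fatty acid and triglyceride synthesis, 7 were lower and 4 higher (median -0.28). Scd1, stearoyl-CoA desaturase, was at 648, 1326, 1153, 1015 and 1693 CPM in Dex and 2482 to 9901 CPM (median 6130) in Cort livers, log2 fold change -2.20 ± 0.28 (SE), adjusted p = 4.67e-05. Srebf1, the lipogenic transcription factor SREBP-1, was at 17.9, 28.1, 27.9, 32.9 and 27.5 CPM against 64.8 to 166 CPM (median 95.6), log2 fold change -1.95 ± 0.24 (SE), adjusted p = 3.26e-05. Fasn, fatty acid synthase, was at 56.9, 70.2, 65.7, 99.4 and 90.2 CPM against 109 to 298 CPM (median 228), log2 fold change -1.501 ± 0.19 (SE), adjusted p = 4.53e-05. All Dex livers were below all Cort livers for these 3 genes. Lpin2, a phosphatidate phosphatase of triglyceride synthesis, was higher instead, at 930.0, 726, 551.4, 999 and 919 CPM against 139 to 344 CPM (median 280.1), log2 fold change 1.64 ± 0.17 (SE), adjusted p = 8.46e-06.

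The lipid droplet list split as well, with 4 of 15 higher and 6 lower (median -0.22). Beside G0s2, Mgll, monoacylglycerol lipase, was lower (-0.57 ± 0.12). Higher were Pnpla2 (ATGL), the lipase that G0s2 inhibits, at 152, 155, 93.3, 146 and 130.2 CPM against 51.5 to 82.8 CPM (median 71.9), log2 fold change 0.98 ± 0.13 (SE), adjusted p = 6.48e-05, and the droplet coat protein Plin3 (0.80 ± 0.09). Cidec, a protein of droplet growth, was at 87.6, 12.9, 8.49, 41.8 and 93 CPM against 4.66 to 25.4 CPM (median 13.9), log2 fold change 1.91 ± 0.47 (SE), adjusted p = 0.00494. For Cidec, E47KO replicates 2 and 3 lay within the Cort range, and in untreated libraries 21.97% of its reads were from the opposite strand, so part of its unstranded count may not be its own.

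Cholesterol synthesis and uptake had 7 of 25 higher and 2 lower, none of them 2-fold (median 0.26). Insig1, which retains SREBP in the ER, was at 112, 249.6, 186, 370.4 and 141 CPM against 64.4 to 140.1 CPM (median 116), log2 fold change 0.94 ± 0.23 (SE), adjusted p = 0.0041. The synthesis enzyme Cyp51 was also higher (0.65 ± 0.19), while Acat2 (-0.62 ± 0.12) was lower. Of apolipoprotein and lipid transport genes, 5 of 21 were higher and 4 lower (median 0.04), close to the background. Apoa1, the main protein of HDL, was at 10804, 7037, 9797, 9062 and 14785 CPM against 1749 to 6712 CPM (median 3491), log2 fold change 1.46 ± 0.28 (SE), adjusted p = 0.00085, and Apoa4 was at 1680, 832, 1710, 2079 and 4106 CPM against 332 to 1918 CPM (median 765), log2 fold change 1.35 ± 0.24 (SE), adjusted p = 0.00059. Mttp, which loads lipid onto apolipoprotein B, was higher (0.49 ± 0.10) and Apoc1 lower (-0.46 ± 0.09). Of genes of PPARα and fatty acid oxidation 2 of 21 were higher and 4 lower (median 0.0054). With the low-number Dex animals alone 5 were higher and 3 lower, the same counts as against the low-number Cort animals alone. Ppara itself was lower (log2 fold change -0.94 ± 0.18 (SE), adjusted p = 0.000762), as were the ketone body enzyme Bdh1 (log2 fold change -1.74 ± 0.20 (SE), adjusted p = 2.07e-05) and, slightly, the carnitine palmitoyltransferase Cpt2 (-0.29 ± 0.08). Acadl, an acyl-CoA dehydrogenase, was 0.21 ± 0.06 on the log2 scale.

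Bile acid synthesis and transport had 5 of 22 genes higher and 4 lower (median -0.02), close to the background. Cyp7b1, oxysterol 7α-hydroxylase, was at 148, 191, 179, 221 and 181 CPM in Dex and 38.9 to 76.3 CPM (median 58.5) in Cort livers, log2 fold change 1.63 ± 0.14 (SE), adjusted p = 2.36e-06. Cyp27a1, the sterol 27-hydroxylase, was higher (0.64 ± 0.11), and so were the uptake transporters Slco1a4 (1.30 ± 0.17) and Slco1a1 (1.41 ± 0.27). Of the drug-metabolising P450 genes and their receptors, 9 of 18 were higher and 3 lower (median 0.37). Cyp3a11, the mouse counterpart of the human PXR target CYP3A4, was at 6497, 8323, 9231, 6911 and 14430 CPM against 3915 to 6315 CPM (median 5443), log2 fold change 0.78 ± 0.19 (SE), adjusted p = 0.00452, without overlap. Por, the reductase that feeds electrons to these enzymes, was 0.84 ± 0.14 and Cyp2c29 0.90 ± 0.20. These P450 genes have near-identical neighbours, so their counts can be split between copies.

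Glutathione genes and other targets of the oxidative stress factor NRF2 were lower in Dex liver, 11 of 16 with 0 higher (median -0.91). Nqo1, a quinone reductase and the textbook NRF2 target, was at 4.04, 3.95, 3.91, 2.91 and 2.12 CPM in Dex and 6.23 to 10.6 CPM (median 8.72) in Cort livers, log2 fold change -1.33 ± 0.19 (SE), adjusted p = 9.34e-05. Gsta4 was at 8.79, 12.1, 10.7, 16.5 and 6.42 CPM against 20.4 to 54.8 CPM (median 36.6), log2 fold change -1.73 ± 0.26 (SE), adjusted p = 0.000151. The glutathione transferases Gstm1 (-0.90 ± 0.12) and Gstm6 (-0.91 ± 0.10) belong to a cluster of similar genes. In each of these 4 all Dex livers lay below all Cort livers. The count was 10 lower and 1 higher against the high-number Cort animals alone, and 11 lower against the low-number ones.

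Genes of amino acid breakdown and the urea cycle were higher in 9 of 22 cases and lower in 2 (median 0.40). Bhmt, betaine-homocysteine methyltransferase, was at 8458, 8467, 6298, 7871 and 6450 CPM in Dex and 984 to 4118 CPM (median 1793) in Cort livers, log2 fold change 1.82 ± 0.27 (SE), adjusted p = 0.00014. Cth, cystathionine γ-lyase, was higher (0.88 ± 0.20). Nags, which makes the activator of the urea cycle, was lower (-0.45 ± 0.07). Against the 3 low-number Cort animals alone 16 members were higher (median 0.69), and against the 5 high-number ones 5 (median 0.22). Of acute phase genes, 7 of 24 were lower and 3 higher (median -0.02). Complement C3 was at 7713, 7534, 10351, 8212 and 7235 CPM against 10797 to 13474 CPM (median 11998), log2 fold change -0.56 ± 0.11 (SE), adjusted p = 0.00106, and Steap4 was lower (log2 fold change -1.40 ± 0.28 (SE), adjusted p = 0.00117). C-reactive protein (Crp, 0.70 ± 0.15) and ceruloplasmin (Cp, 0.42 ± 0.11) were higher.

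Of insulin signalling and IGF binding genes, 5 of 15, among them Igfbp1, were higher and 2 lower (median 0.12). Igfals, which holds IGF1 in its circulating complex, was at 47.2, 51.4, 68, 58 and 52 CPM in Dex and 134 to 206 CPM (median 165) in Cort livers, log2 fold change -1.59 ± 0.11 (SE), adjusted p = 5.73e-07. Trib3, a pseudokinase that restrains AKT, was at 27.2, 19, 18.4, 20.5 and 19.8 CPM against 3.28 to 8.11 CPM (median 6.13), log2 fold change 1.86 ± 0.18 (SE), adjusted p = 6.47e-06. Igfbp2 was at 337, 323, 448, 311 and 103 CPM against 26.6 to 164 CPM (median 68.3), log2 fold change 1.81 ± 0.30 (SE), adjusted p = 0.000307, with wildtype replicate 2 inside the Cort range. In the growth hormone pathway 2 of 11 genes were higher and 2 lower (median -0.53). Stat5b, the transcription factor of the pathway, was higher (log2 fold change 0.72 ± 0.12 (SE), adjusted p = 0.000273), as was its feedback inhibitor Socs2 (1.10 ± 0.33). The receptors Ghr (-0.58 ± 0.17) and Prlr (log2 fold change -1.83 ± 0.25 (SE), adjusted p = 8.19e-05) were lower.

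Male-biased liver genes, which depend on the pulsed growth hormone pattern of males, were higher in Dex liver in 9 of 15 cases and lower in 0 (median 1.41). Elovl3, a fatty acid elongase, was at 377, 309, 175, 262 and 202 CPM in Dex, 4.93 to 38.2 CPM (median 19.1) in Cort and 26.2 to 133 CPM in untreated livers, log2 fold change 3.69 ± 0.44 (SE), adjusted p = 2.63e-05. Selenbp2 was at 258, 374, 415, 605 and 1173 CPM against 7.19 to 178 CPM (median 33.8), log2 fold change 3.34 ± 0.71 (SE), adjusted p = 0.00175, while untreated livers held 482 to 2460 CPM. Serpina1e, which has close paralogues, was at 7487, 5029, 10292, 4101 and 11230 CPM against 19.8 to 4778 CPM (median 753), log2 fold change 3.06 ± 0.78 (SE), adjusted p = 0.00577, with 5393 to 15911 CPM in untreated livers. For Selenbp2 and Serpina1e all Cort livers lay under the lowest untreated liver. The pheromone-carrier genes Mup20 (1.44 ± 0.23) and Mup1 (2.78 ± 0.49) share reads with the rest of their cluster. The list kept a count of 8 to 10 higher and 0 lower under each restriction to low- or high-number animals or to wildtype livers, and had 7 higher in E47KO livers alone.

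Female-biased genes gave 5 lower and 3 higher of 13 (median -1.55), most of them at very low levels in these male livers. Cyp17a1, a steroid 17α-hydroxylase, was at 507, 324, 360.3, 517 and 740.5 CPM in Dex and 20.2 to 205 CPM (median 74.2) in Cort livers, log2 fold change 2.64 ± 0.40 (SE), adjusted p = 0.000162. Cyp2c69 was lower at 0.399, 0.423, 0.447, 0.358 and 0.498 CPM against 0.593 to 21.1 CPM (median 5.49), log2 fold change -3.58 ± 0.77 (SE), adjusted p = 0.00207. Cyp2b13 was higher (3.04 ± 0.77) at 1.43 CPM or less in each liver. Cyp3a16 had no more than 3 counts in any Cort library, and its Dex mean was at least 20.2-fold higher than the level that 3 counts per library give. Cyp2b9 had no more than 3 counts in any Dex library and ranged over 0.0425 to 137 CPM (median 7.76) in Cort livers, at least 179-fold higher on average than the level of 3 counts per Dex library. Without Cort wildtype replicate 4, the highest liver, this bound was 82.8-fold, and the Cort livers overlapped the Dex range.

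**Figure D2:**
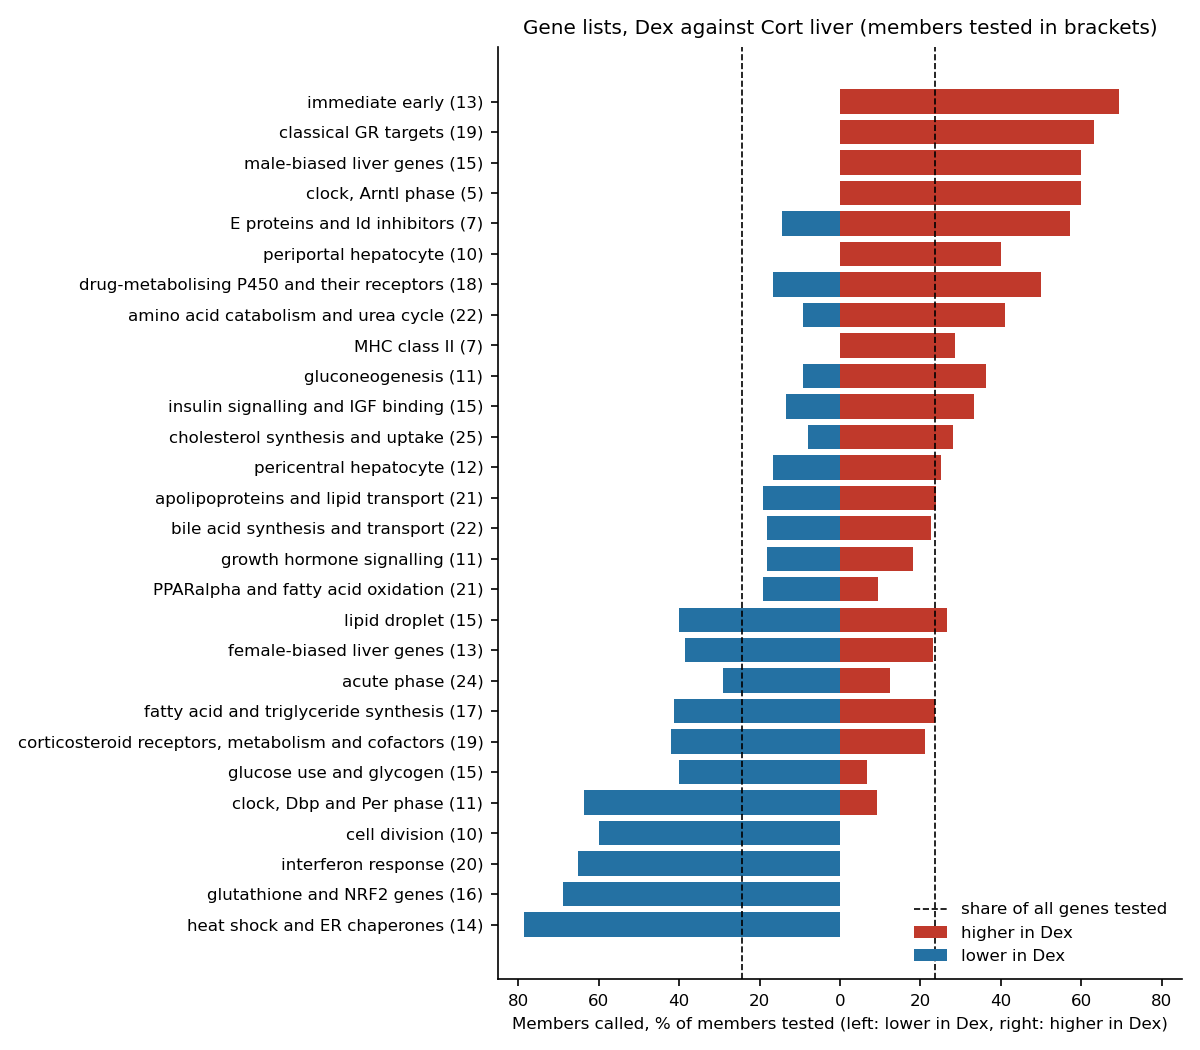
Share of the tested members of each gene list that passed an adjusted p of 0.05 as higher (red, to the right) or lower (blue, to the left) in Dex than in Cort liver, in percent; dashed lines mark 23.5% and 24.4%, the shares over all genes tested. Heat shock and ER chaperones (11 of 14), NRF2 genes (11 of 16) and interferon genes (13 of 20) extend past the left line, and immediate early genes (9 of 13), GR targets (12 of 19) and male-biased genes (9 of 15) past the right one.

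Genes of the circadian clock differed in opposite directions by phase. The clock consists of activators (Arntl, Clock, Npas2) whose transcripts peak opposite to those of the Per genes and of Dbp, Tef and Hlf. Of genes in the Arntl phase, 3 of 5 were higher and 0 lower in Dex liver (median 1.29). Arntl was at 35.5, 27.3, 22.7, 17.3 and 20.9 CPM in Dex, 1.88 to 12.6 CPM (median 5.51) in Cort and 0.558 to 5.96 CPM in untreated livers, log2 fold change 1.98 ± 0.35 (SE), adjusted p = 0.000531. Clock was at 124, 104, 92.9, 99.5 and 109 CPM against 27 to 61.8 CPM (median 41.6), log2 fold change 1.29 ± 0.16 (SE), adjusted p = 3.77e-05. Npas2 was at 6.09, 3.06, 2.35, 1.64 and 4.11 CPM against 0.177 to 0.69 CPM (median 0.281), log2 fold change 3.10 ± 0.36 (SE), adjusted p = 2.03e-05. All 3 were without overlap.

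Of genes in the opposite phase, 7 of 11 were lower and 1, Bhlhe41, was higher (median -1.14). Per3 was at 2.45, 7.25, 3.57, 8.69 and 4.92 CPM in Dex, 19.2 to 56.2 CPM (median 36.1) in Cort and 33.7 to 78.2 CPM in untreated livers, log2 fold change -2.83 ± 0.33 (SE), adjusted p = 2.49e-05. Per2 was at 11.4, 17.1, 10.6, 27.4 and 22.5 CPM against 48.3 to 96.1 CPM (median 68.2), log2 fold change -1.99 ± 0.23 (SE), adjusted p = 1.81e-05. Tef (-1.14 ± 0.15) and Hlf (-0.87 ± 0.11) were lower without overlap. Dbp, whose transcript swings most over the day, was at 1.4, 7.81, 3.63, 15.3 and 13.1 CPM against 9.35 to 62 CPM (median 23.1), log2 fold change -1.82 ± 0.60 (SE), adjusted p = 0.0225, with overlap. The hour at which the mice were killed is not given per animal in the sources used here, and hour and steroid cannot be told apart. Against the 5 high-number Cort animals alone 7 members were lower and 3 higher.

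The Per3 promoter is printed because it holds the D-box, the site through which Dbp, Tef and Hlf are known to act, at a pair of places (RefSeq GRCm38.p6, chr4:151044616-151044915, minus strand; capitals mark TTANGTAA on either strand). The letters occur in 1 of the 10 matched genes of this list and in 2.32% of all promoters.
Per3: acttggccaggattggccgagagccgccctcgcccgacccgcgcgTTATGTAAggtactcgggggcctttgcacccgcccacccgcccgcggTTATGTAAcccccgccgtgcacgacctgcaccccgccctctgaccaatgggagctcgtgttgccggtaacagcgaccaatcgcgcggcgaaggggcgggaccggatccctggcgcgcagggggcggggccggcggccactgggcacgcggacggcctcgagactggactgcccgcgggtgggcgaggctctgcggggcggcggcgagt

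Immediate early genes, the quickly induced transcription factors of stimulated cells, were higher in 9 of 13 cases and lower in 0 (median 1.74). Nr4a1, an orphan nuclear receptor, was at 28.1, 23.1, 13.1, 28.8 and 16.2 CPM in Dex and 0.741 to 3.31 CPM (median 1.06) in Cort livers, log2 fold change 3.82 ± 0.40 (SE), adjusted p = 1.00e-05. Jun was at 75.7, 55.4, 78, 81.3 and 126 CPM against 9.4 to 34.8 CPM (median 13), log2 fold change 2.23 ± 0.34 (SE), adjusted p = 0.000161. Ier2 was at 24, 21.6, 19.5, 28.2 and 30.2 CPM against 10.2 to 18.2 CPM (median 13.7), log2 fold change 0.84 ± 0.16 (SE), adjusted p = 0.000936. Btg2, which slows the cell cycle, was at 38.7, 24.5, 16.8, 66.1 and 90.5 CPM against 7.96 to 17.7 CPM (median 9.74), log2 fold change 1.97 ± 0.31 (SE), adjusted p = 0.000223, with E47KO replicate 3 inside the Cort range. Against the 5 high-number Cort animals 13 were higher and 0 lower, and against the 3 low-number Cort animals 7 higher and 1 lower. These genes also respond to handling and to the time between killing and freezing, neither of which is recorded per animal in the sources used here, and their part in the difference was not tested.

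Heat shock and ER chaperone genes were lower in Dex liver in 11 of 14 cases and higher in 0 (median -0.85). Hspa5 (BiP), the main ER chaperone, was at 566, 430.2, 814, 510.3 and 567 CPM in Dex and 1174 to 4210 CPM (median 1620) in Cort livers, log2 fold change -1.82 ± 0.30 (SE), adjusted p = 0.000317, 3.53-fold lower. Untreated livers held 469 to 945 CPM, a range that holds 4 of the 5 Dex values and none of the Cort values. Pdia4, an ER disulfide isomerase, was at 95.8, 65.6, 134, 70.2 and 83.2 CPM against 220.1 to 793 CPM (median 308), log2 fold change -2.12 ± 0.29 (SE), adjusted p = 7.75e-05. Creld2, an ER-stress-induced chaperone, was at 31.2, 18.3, 33.8, 24.9 and 30.6 CPM against 70.1 to 495 CPM (median 128), log2 fold change -2.78 ± 0.46 (SE), adjusted p = 0.000324. E47KO Cort replicate 2 was the highest liver for all 3, as it was for Derl3 and Sdf2l1, yet no Dex liver reached the lowest Cort liver. The cytosolic heat shock genes Hspb1 (-0.63) and Dnajb1 (-0.67) were lower by less than 2-fold.

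Promoters of Hspa5 and Creld2 are printed because they hold the ER stress element, through which ATF6 and XBP1 act on chaperone genes (RefSeq GRCm38.p6, chr2:34771840-34772139, plus strand and chr15:88819396-88819695, plus strand). Capitals mark CCAAT, 9 free bases and CCACG on either strand, which occur in 3 of the 13 matched genes of the list (Creld2, Hsp90b1 and Hspa5) and in 0.119% of all promoters.
Hspa5: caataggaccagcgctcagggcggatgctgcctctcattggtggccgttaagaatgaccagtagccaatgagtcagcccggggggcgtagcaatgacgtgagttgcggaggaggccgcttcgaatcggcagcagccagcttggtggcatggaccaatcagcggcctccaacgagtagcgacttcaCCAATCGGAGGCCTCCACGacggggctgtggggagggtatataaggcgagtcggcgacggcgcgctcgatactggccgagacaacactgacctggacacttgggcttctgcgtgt
Creld2: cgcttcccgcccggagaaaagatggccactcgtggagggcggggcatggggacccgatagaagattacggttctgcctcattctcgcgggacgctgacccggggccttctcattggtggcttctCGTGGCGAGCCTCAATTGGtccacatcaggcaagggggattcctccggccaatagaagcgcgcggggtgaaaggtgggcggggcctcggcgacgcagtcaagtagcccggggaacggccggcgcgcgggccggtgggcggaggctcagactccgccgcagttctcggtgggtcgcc

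Interferon response genes were lower in Dex liver in 13 of 20 cases, with 0 higher and every fitted fold change below zero (median -1.15). Igtp, an interferon-induced GTPase, was at 4.84, 5.6, 13.8, 5.98 and 5.73 CPM in Dex and 16.9 to 37.8 CPM (median 27.9) in Cort livers, log2 fold change -2.02 ± 0.30 (SE), adjusted p = 0.000137. E47KO replicate 3 held the most Igtp of the Dex livers, far above the others, and still lay below all Cort livers. Gbp7, a guanylate-binding protein, was at 1.4, 3.34, 2.68, 2.3 and 1.25 CPM against 5.26 to 12.4 CPM (median 8.4), log2 fold change -2.001 ± 0.24 (SE), adjusted p = 2.84e-05. Oasl1 was at 1.4, 1.74, 2.62, 2.3 and 1.25 CPM against 5.57 to 13.5 CPM (median 9.52), log2 fold change -2.42 ± 0.25 (SE), adjusted p = 9.36e-06. The untreated range of Igtp (17.9 to 32.6 CPM) covered 4 of the 8 Cort values and none of the Dex values. MHC class II had 2 of 7 tested genes higher, H2-Ab1 (1.03 ± 0.27) and H2-DMa (0.72 ± 0.22), and 0 lower (median 0.49). That share of higher genes is close to the 23.5% of all genes tested. E47KO Dex replicate 3 stood apart for H2-Ab1, at 16.1 CPM against 2.62 to 6.26 CPM in the other Dex livers.

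Promoters of Igtp and Gbp7 are printed with the interferon-stimulated response element in capitals (GAAA, 2 free bases and GAAA, on either strand; RefSeq GRCm38.p6, chr11:58199306-58199605, plus strand and chr3:142530086-142530385, plus strand). These letters occur in 11 of the 16 matched genes of the list and in 3.44% of all promoters.
Igtp: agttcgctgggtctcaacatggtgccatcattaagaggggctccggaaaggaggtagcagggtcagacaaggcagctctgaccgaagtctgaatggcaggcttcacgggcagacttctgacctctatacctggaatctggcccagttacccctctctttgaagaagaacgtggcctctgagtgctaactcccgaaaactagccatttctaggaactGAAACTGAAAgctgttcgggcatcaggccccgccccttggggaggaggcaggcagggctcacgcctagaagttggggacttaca
Gbp7: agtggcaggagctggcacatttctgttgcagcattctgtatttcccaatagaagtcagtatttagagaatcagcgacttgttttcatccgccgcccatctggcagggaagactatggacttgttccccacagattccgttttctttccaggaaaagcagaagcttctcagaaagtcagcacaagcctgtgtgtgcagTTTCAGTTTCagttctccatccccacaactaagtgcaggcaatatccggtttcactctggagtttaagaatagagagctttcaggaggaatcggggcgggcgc

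**Figure D3:**
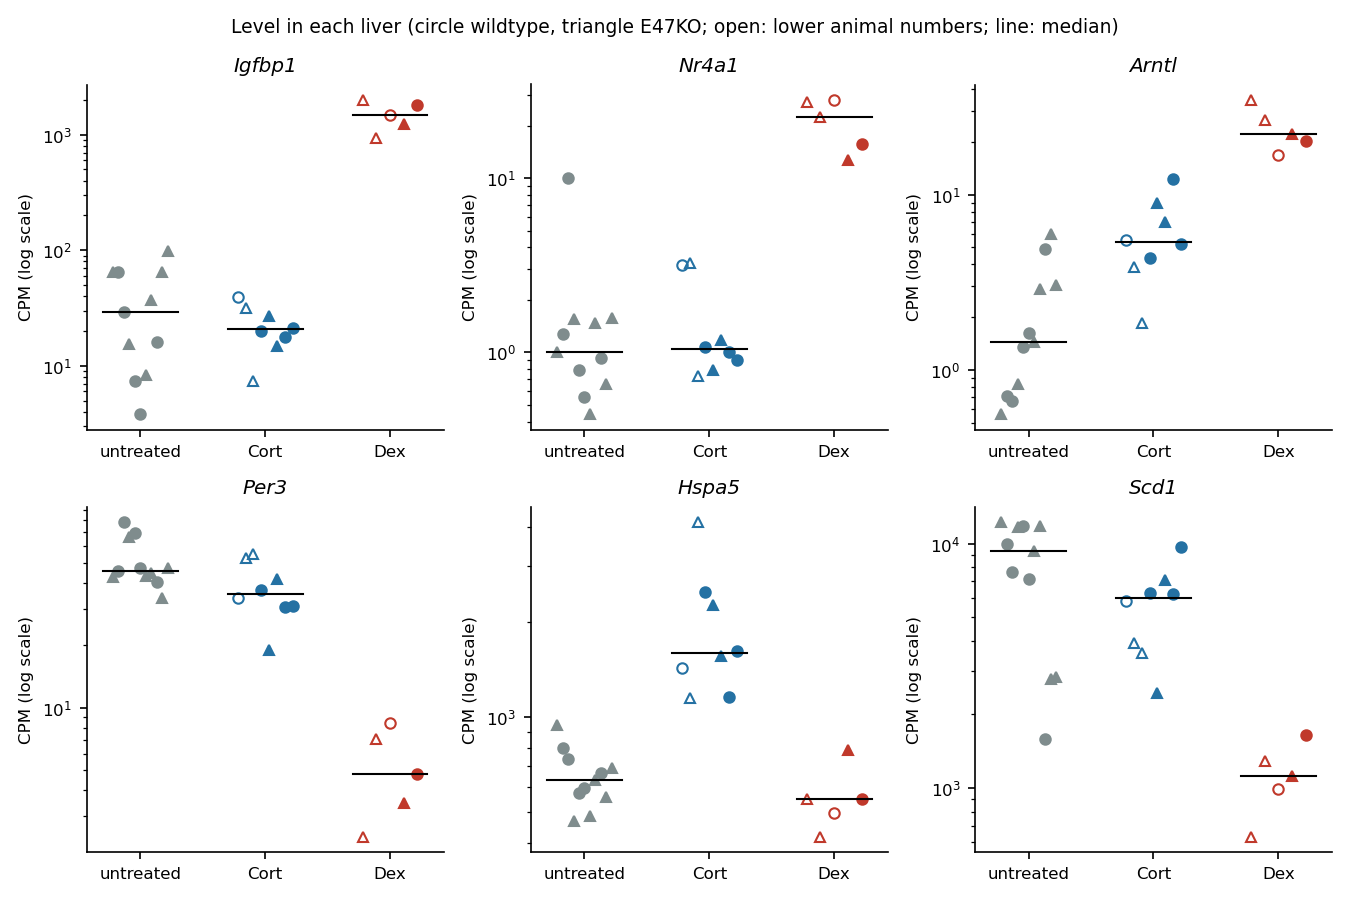
Level of 6 genes in each untreated (grey, n = 11), Cort (blue, n = 8) and Dex (red, n = 5) liver, in CPM on log axes and scaled over all 24 livers together; circles are wildtype, triangles E47KO, open symbols the low animal numbers, and lines the medians. For Igfbp1, Nr4a1, Arntl and Per3 the Cort livers lie nearer the untreated ones than the Dex livers do, whereas for Hspa5 the Dex livers do; untreated livers enter no test.

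Cell division genes were lower in 6 of 10 cases and higher in 0 (median -1.74), at levels of a few CPM or less. The survivin gene Birc5 was at 0.299, 0.659, 0.279, 0.204 and 0.187 CPM in Dex and 1.07 to 3.42 CPM (median 1.62) in Cort livers, log2 fold change -2.45 ± 0.41 (SE), adjusted p = 0.000341. Ccnb2 (-2.03 ± 0.38), Cdk1 (-1.44 ± 0.37) and Ube2c (-2.68 ± 0.69) were lower as well. In untreated libraries 93.3% of the Ube2c reads were from the opposite strand, so its unstranded count cannot be assigned to the gene. Of pericentral genes 3 of 12 were higher and 2 lower (median 0.08), close to the background. Glul, glutamine synthetase, was at 0.52 ± 0.12, the glutamate transporter Slc1a2 at 0.73 ± 0.13, Slc1a4 at -1.72 ± 0.35 and Lect2 at -0.88 ± 0.23. Of periportal genes 4 of 10 were higher and 0 lower (median 0.17), with Hsd17b13 at 0.39 ± 0.08, Cdh1 at 1.01 ± 0.28 and Arg1, arginase, at 1.04 ± 0.33 beside Pck1. With the low-number Dex animals alone 1 periportal gene was higher.

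Markers of the cell types that liver tissue can hold were summed for each library. In whole tissue, fewer cells of a type and less RNA per cell cannot be told apart. Hepatocyte markers summed to 123359 to 155891 CPM in Dex and 101206 to 156574 CPM in Cort livers, and 4 of 12 were higher and 1 lower (median 0.23), among them Cps1, the entry enzyme of the urea cycle (1.10 ± 0.31), Cyp2e1 (0.40 ± 0.13) and transthyretin (Ttr, -0.47 ± 0.13). Kupffer cell and macrophage markers summed to 199.5 to 284 CPM in Dex livers, all above the 117 to 184 CPM of the Cort livers, and 10 of 12 were higher and 0 lower (median 0.77). Marco, a scavenger receptor, was at 20.1, 30.4, 20.8, 31 and 41.6 CPM against 1.95 to 11.5 CPM (median 8.34), log2 fold change 2.11 ± 0.24 (SE), adjusted p = 1.87e-05. The macrophage markers Adgre1 (F4/80, 0.78 ± 0.13), C1qb (0.73 ± 0.16) and Csf1r (0.45 ± 0.10) were higher too. In strand-keeping libraries, 13.7% of the Csf1r reads were from the opposite strand.

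Endothelial markers differed between the sets of Dex animals. Of 9 markers 8 were higher and 0 lower in Dex liver (median 0.80), but their sum was 372.6 to 414.3 CPM in the 3 low-number Dex animals and 145.5 and 152 CPM in the 2 high-number ones, within the 136 to 228 CPM of the Cort livers. Cdh5 (VE-cadherin) was at 28.6, 29, 6.64, 34.8 and 10.2 CPM in Dex and 8.72 to 13.3 CPM (median 10.9) in Cort livers, log2 fold change 1.02 ± 0.32 (SE), adjusted p = 0.0169. Clec4g (0.92 ± 0.23), Lyve1 (0.9995 ± 0.33) and Pecam1 (0.75 ± 0.26) were likewise highest in the 3 low-number animals. The count of higher markers was 9 of 9 with the 3 low-number Dex animals alone, 1 against the high-number Cort animals and 0 against the low-number ones. The medians in the same order were 1.29, 0.65 and 0.999. Stellate and fibroblast markers were split, 4 higher and 4 lower of 10 (median -0.22), with Dcn (0.82 ± 0.11), Lum (0.95 ± 0.20) and Reln (0.69 ± 0.18) higher and the collagen gene Col1a1 lower (-1.34 ± 0.39).

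Skeletal muscle transcripts were high in 5 of the 8 Cort livers, those with high animal numbers. Their 7 muscle markers summed to 138 to 188 CPM, against 0.698 to 0.964 CPM in the other 3 Cort livers, 6.75 to 19.5 CPM in Dex livers and 0.976 to 332 CPM in untreated livers. Myh4, a fast myosin, was at 4.89, 0.659, 1.17, 1.23 and 2.68 CPM in Dex and 0 to 69.4 CPM (median 49.8) in Cort livers, log2 fold change -3.92 ± 1.52 (SE), adjusted p = 0.0475, and Mylpf was at -2.11 ± 0.71. In the whole comparison 2 of 7 were called lower and 0 higher (median -3.17). Without these 5 livers 6 were called higher and 0 lower. Without these livers the lists gave 17 lower interferon genes, 10 lower chaperones and 9 higher male-biased genes. Macrophage markers gave 10 higher and 1 lower. Other counts fell in this smaller set of livers, though their medians did not. Higher endothelial markers went from 8 to 0 (median 0.80 to 0.999) and higher ribosomal protein genes from 34 to 15 (median 0.21 to 0.27). Higher immediate early genes went from 9 to 7, with 1 lower (median 1.74 to 0.91). Lower genes of the Dbp and Per phase went from 7 to 5 (median -1.14 to -0.54). Higher GR targets rose from 12 to 16, and higher genes of amino acid breakdown from 9 to 16.

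Bile duct markers gave 1 lower of 5 tested, Krt7 (-1.34 ± 0.27), and 0 higher (median -0.61; 25.7 to 45.2 CPM in Dex and 35.6 to 98 CPM in Cort livers). Of T and NK cell markers 2 of 9 were tested, and both, Cd4 (1.74 ± 0.35) and Lck (1.03 ± 0.36), were higher at 1.07 CPM or less in each liver (median 1.38). Of neutrophil markers 3 of 8 were tested and 0 called (median 0.63, Retnlg smallest in adjusted p at 0.0574). Of B cell markers 3 of 8 were tested and 0 called (median 0.39, Ighm 0.88 ± 0.49, adjusted p = 0.154). None of the 6 erythroid markers tested was called (median -0.05, Alas2 at adjusted p = 0.322), nor was the adipocyte marker Adrb3 (-0.39 ± 0.34, adjusted p = 0.366), the only 1 of 6 tested, while adiponectin was below 0.1 CPM on average. Of 7 acinar markers Prss2, Cpa1 and Amy2a1 had no count in any of the 13 livers, and Cela1, the only 1 tested, did not pass (0.32 ± 0.15, adjusted p = 0.0887).

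RNA classes that depend on library preparation differed as well. Nuclear-retained RNAs were higher in Dex liver in 2 of 3 cases (median 1.06). Malat1 was at 221, 262, 401, 219 and 487 CPM in Dex and 61 to 117 CPM (median 102) in Cort livers, log2 fold change 1.70 ± 0.21 (SE), adjusted p = 3.16e-05, and Neat1 differed by 1.06 ± 0.22. All 3 tested RNAs without a poly(A) tail were higher (median 3.24), though at most 3.24 CPM in Rn7sk (3.24 ± 0.63). Terc was 1.43 ± 0.50 and Rpph1, with no more than 3 counts in any Cort library, at least 6.54-fold higher. Of mitochondrially encoded mRNAs 9 of 13 were higher (median 0.53; mt-Atp8 4.75 ± 0.20, mt-Nd3 1.93 ± 0.21, mt-Co2 1.499 ± 0.18, mt-Nd4l 1.93 ± 0.25), the largest differences being in genes at low CPM, and the mitochondrial share of all counts was 4.75 to 5.72% in Dex and 4.48 to 5.62% in Cort livers. Ribosomal protein genes were higher in 34 of 77 and lower in 2 (median 0.21; Rpl22l1 1.37 ± 0.12, Rpl35 0.64 ± 0.09, Rpl27a 0.64 ± 0.10, Rpl7l1 -0.50 ± 0.08). Of 12 replication-dependent histone genes 2 were tested and 1, Hist1h4i (-0.92 ± 0.29), was lower (median -0.40). The part of library preparation in the results above was not tested.

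The difference between the steroids was then compared between the genotypes. No gene passed an adjusted p of 0.05 for an interaction of treatment and genotype (0 of 15591, edgeR's quasi-likelihood test), and 555 genes (3.56%) had an unadjusted p under 0.05. DESeq2 called 2 genes, Gstm3 and Frmd4b. In simulated data of the same design, 60% of genes with a 4-fold interaction and 14% of those with a 2-fold interaction were recovered, so that many interactions of that size would be missed at this number of livers. Fitted separately, 3276 of 14397 genes tested in both were called in wildtype and 4013 in E47KO livers. Of these, 2370 were called in both, 72.3% of the wildtype and 59.1% of the E47KO calls, and all but 1 had the same sign. These genotype counts rest on 2 Dex livers in wildtype and 3 in E47KO.

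Among the named genes, Nqo1 had the smallest interaction p. Its log2 fold change was -2.001 ± 0.19 in wildtype and -0.87 ± 0.15 in E47KO livers (unadjusted p = 0.000187, adjusted p = 0.973). Mup11 differed by 6.40 ± 0.21 in wildtype and 3.15 ± 0.75 in E47KO livers (unadjusted p = 0.00438, adjusted p = 1) and Per2 by -1.43 ± 0.22 in wildtype and -2.46 ± 0.23 in E47KO livers (unadjusted p = 0.00722, adjusted p = 1). For Igfbp1 the values were 6.06 ± 0.35 in wildtype and 6.12 ± 0.55 in E47KO livers and for Hspa5 -1.66 ± 0.31 in wildtype and -1.93 ± 0.44 in E47KO livers. The lower NRF2 genes numbered 9 in wildtype and 8 in E47KO livers, the lower interferon genes 8 and 11, and the higher GR targets 8 and 7. Higher immediate early genes numbered 8 in wildtype and 3 in E47KO livers (medians 2.45 and 1.17), and higher MHC class II genes 0 and 3 (medians -0.20 and 0.93). Differences between these list counts were not tested.

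**Figure D4:**
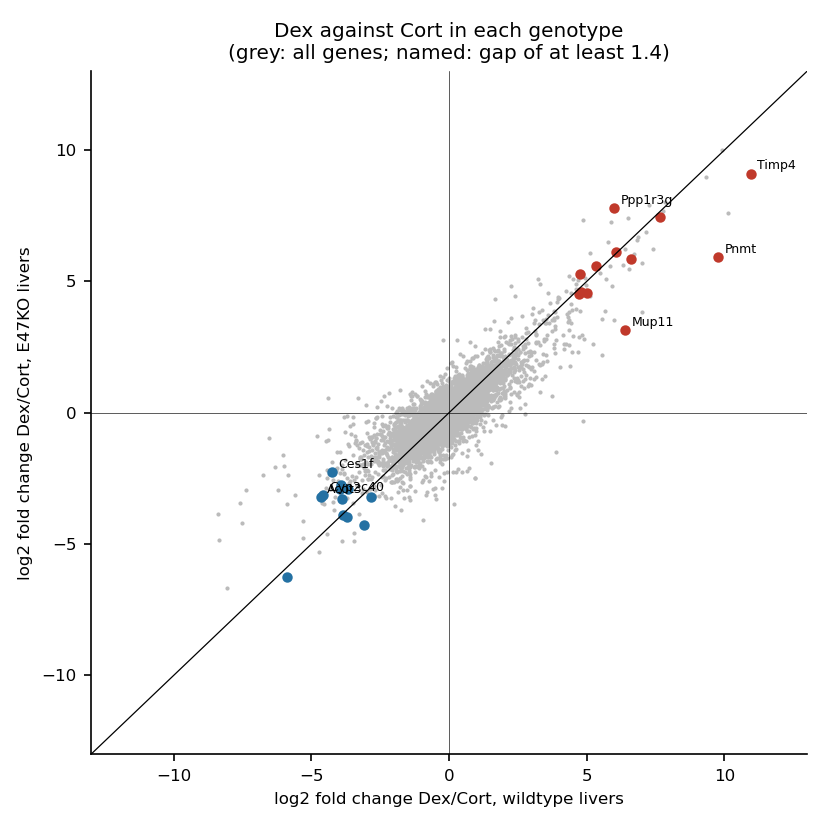
Log2 fold change of Dex over Cort liver in wildtype (x axis; 2 Dex and 4 Cort livers) against E47KO mice (y axis; 3 Dex and 4 Cort livers), 1 grey point per gene for 14397 genes, with the 12 highest (red) and 12 lowest (blue) named genes marked. The diagonal is equality. The red and blue genes lie in the same quadrant in both genotypes, which their choice as non-overlapping genes required. Among the red ones Mup11 and Pnmt lie the furthest below the line.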

How the data were processed

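RNA-seq of mouse liver was analysed from the count tables that the authors deposited, 1 per library, with raw read counts per gene. Per the labels and the study's methods, reads were aligned with STAR 2.4.2a to mm10; the Cort files hold STAR's own gene counts and the Dex files end as HTSeq writes them. The unstranded count column was used for all livers, for the 45706 genes listed in both file layouts. The Cort libraries are labelled stranded, but their 2 strand columns held equal shares (49.9 to 50.0%), so they were treated as unstranded. Deposited tables of the authors' own comparisons hold fold changes and p-values and were not used. Symbols and coordinates came from GENCODE M21 (GRCm38) and promoters from RefSeq GRCm38.p6.

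Genes passing filterByExpr were tested with edgeR 4.0.16 (R 4.3.3; TMM, quasi-likelihood F test, treatment and genotype as terms, Benjamini-Hochberg adjusted p under 0.05, with a further count at 2-fold). CPM are TMM-scaled over the 13 livers, and untreated levels over 24, which lowers the shared values by at most 3%. Standard errors are the fold change divided by the root of F. Members, gene lists (45) and tests were chosen with earlier results of these data known. Named genes are Tcf3, Nr3c1 and Hsd11b1, the 12 protein-coding genes per direction with the largest change among non-overlapping called genes of at least 10 CPM, and up to 4 called members per list by adjusted p; Serpina6, Tsc22d3, Fkbp5, Per1, G6pc, Cyp2b9, Sult3a1, Pdk4, Cidec, Selenbp2, Serpina1e, Mt1, Dbp, Hspb1, Dnajb1, Mx1 and Oas1a were chosen after their values were seen. Nothing states that same-numbered replicates share a litter or day. Scripts were tested on simulated counts: 60% of 2-fold and 90% of 4-fold differences between the steroids were recovered. The simulation changed 50 genes at each fold size, far fewer than the 7462 called here, so its recovery need not hold for these data. Total counts of 17.5 to 54.6 M per library limit precision mainly for genes below about 1 CPM. DESeq2 1.42.0 was an alternative. Some genes that the rule chose are not reported here, though the counts include them.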

Additional observations from a re-analysis of the deposited data

Results flagged for a closer look

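The level of each named gene was examined for a single liver standing apart, within the 5 Dex and within the 8 Cort livers, by the gap of the highest or lowest liver to its nearest neighbour divided by the whole range of the group (Dixon's ratio). A liver stood apart in 42 of 352 such groups (11.9%). The nominal chance rate of 5% holds for normally distributed values of a single uniform group. These CPM pool both genotypes and both ranges of animal numbers, so 5% is not a reference for them. The genes are also not independent of each other.

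The E47KO Cort replicate 1 liver stood apart for Insig1 (lowest, 64.4 CPM against 105 to 140.1 in the other Cort livers, ratio 0.536). The E47KO Cort replicate 2 liver stood apart for Mup11 (highest, 37.6 CPM against 2.04 to 12.6 in the other Cort livers, ratio 0.702), Derl3 (highest, 150.3 CPM against 3.72 to 49.2 in the other Cort livers, ratio 0.69), Nrep (highest, 51.3 CPM against 2.61 to 10.8 in the other Cort livers, ratio 0.832), Pdia4 (highest, 793 CPM against 220.1 to 473 in the other Cort livers, ratio 0.558), Hspa5 (highest, 4210 CPM against 1174 to 2534 in the other Cort livers, ratio 0.552), Creld2 (highest, 495 CPM against 70.1 to 259 in the other Cort livers, ratio 0.555) and Cela1 (highest, 8.03 CPM against 4.06 to 5.49 in the other Cort livers, ratio 0.64). The E47KO Cort replicate 3 liver stood apart for Pnmt (highest, 0.404 CPM against 0 to 0.144 in the other Cort livers, ratio 0.642), Got1 (highest, 206 CPM against 67.1 to 121 in the other Cort livers, ratio 0.612), Mgll (lowest, 253 CPM against 329.6 to 391 in the other Cort livers, ratio 0.556), Rpl22l1 (highest, 8.95 CPM against 5.24 to 6.94 in the other Cort livers, ratio 0.542) and Serpina1e (highest, 4778 CPM against 19.8 to 1965 in the other Cort livers, ratio 0.591). The E47KO Dex replicate 1 liver stood apart for Trib3 (highest, 27.2 CPM against 18.4 to 20.5 in the other Dex livers, ratio 0.76) and Glul (lowest, 1038 CPM against 1312 to 1402 in the other Dex livers, ratio 0.753). The E47KO Dex replicate 2 liver stood apart for Car3 (highest, 538 CPM against 1.93 to 128 in the other Dex livers, ratio 0.766), Mlxipl (highest, 210.5 CPM against 146 to 157 in the other Dex livers, ratio 0.832) and Birc5 (highest, 0.659 CPM against 0.187 to 0.299 in the other Dex livers, ratio 0.761). The E47KO Dex replicate 3 liver stood apart for Derl3 (highest, 1.23 CPM against 0.299 to 0.436 in the other Dex livers, ratio 0.853), Klf9 (lowest, 117 CPM against 181 to 199 in the other Dex livers, ratio 0.778), Ppargc1a (lowest, 38 CPM against 56.1 to 59.9 in the other Dex livers, ratio 0.829), Igtp (highest, 13.8 CPM against 4.84 to 5.98 in the other Dex livers, ratio 0.874) and H2-Ab1 (highest, 16.1 CPM against 2.62 to 6.26 in the other Dex livers, ratio 0.731). The wildtype Cort replicate 1 liver stood apart for Ppp1r3g (highest, 1.44 CPM against 0 to 0.2 in the other Cort livers, ratio 0.861), Slc1a4 (highest, 16.6 CPM against 2.62 to 8.05 in the other Cort livers, ratio 0.612), Retnlg (highest, 0.8 CPM against 0.124 to 0.245 in the other Cort livers, ratio 0.821), Ighm (highest, 1.64 CPM against 0.279 to 0.838 in the other Cort livers, ratio 0.59) and Pdk4 (highest, 45.3 CPM against 3.19 to 9.88 in the other Cort livers, ratio 0.841). The wildtype Cort replicate 2 liver stood apart for Ube2c (highest, 2.79 CPM against 0.17 to 1.07 in the other Cort livers, ratio 0.655). The wildtype Cort replicate 3 liver stood apart for Cyp2b10 (highest, 148 CPM against 9.61 to 64.4 in the other Cort livers, ratio 0.605). The wildtype Cort replicate 4 liver stood apart for Hsd11b1 (highest, 1003 CPM against 694.3 to 777 in the other Cort livers, ratio 0.734), Styk1 (highest, 1.2 CPM against 0.0247 to 0.475 in the other Cort livers, ratio 0.618), Cyp2c69 (highest, 21.1 CPM against 0.593 to 8.49 in the other Cort livers, ratio 0.615), Cyp2b9 (highest, 137 CPM against 0.0425 to 40.1 in the other Cort livers, ratio 0.707) and Sult3a1 (highest, 49.96 CPM against 0 to 2.42 in the other Cort livers, ratio 0.952). The wildtype Dex replicate 1 liver stood apart for Krt7 (highest, 0.971 CPM against 0.498 to 0.614 in the other Dex livers, ratio 0.755). The wildtype Dex replicate 2 liver stood apart for Timp4 (highest, 505 CPM against 3.58 to 78.2 in the other Dex livers, ratio 0.851), Pnmt (highest, 65.4 CPM against 1.13 to 16.1 in the other Dex livers, ratio 0.767), Styk1 (highest, 171 CPM against 6.12 to 18.4 in the other Dex livers, ratio 0.925), Gdf15 (highest, 427 CPM against 253 to 282 in the other Dex livers, ratio 0.838), Serpina5 (highest, 63.4 CPM against 4.14 to 14.8 in the other Dex livers, ratio 0.82) and Ighm (highest, 5.48 CPM against 0.235 to 1.58 in the other Dex livers, ratio 0.743).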

How the results depend on the processing

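A total of 171 genes that were named, by the rule or after their values were seen, passed the test. None of them changed direction under the alternatives checked gene by gene, and 106 also kept their call under every one of these. The choice of the genes from these same livers favours a kept direction. The fit without the 5 Cort livers with muscle transcripts was not checked gene by gene. In that fit 6 of 7 muscle markers were called higher. Myh4 and Mylpf, called lower in the main fit, thus cannot both have kept their direction. Leaving out wildtype Dex replicate 1 ended the calls of Pecam1, Lyve1, Cdh5, Cyp2e1, Cyp51, Lck, Terc, Pcx, Hist1h4i, Sult3a1, Mylpf and Myh4. Leaving out wildtype Dex replicate 2 ended those of Socs2, Arg1, Cyp2e1, Sult3a1, Mylpf and Myh4, and each of the 3 E47KO Dex livers those of Dbp and Myh4. E47KO Dex replicates 1 and 2 also ended those of Pecam1, Lyve1 and Sult3a1, replicates 1 and 3 that of Lck and replicate 1 that of Mylpf. The call of Myh4 also rested on each high-number Cort liver, that of Sult3a1 on Cort wildtype replicate 4 and that of Lck on E47KO Cort replicates 2 and 4. The count of genes differing between Dex and Cort liver (7462) was 6574 to 7488 when 1 liver was left out, and that of at least 2-fold differences (2176) was 1941 to 2271. Other settings gave 7450 (size factors of DESeq2 in edgeR), 7924 (DESeq2), 7436 (no filter on low counts) and 5534 without the 5 Cort livers with muscle transcripts, an alternative chosen after seeing the data. Fewer samples lowered the counts, to 3366 in wildtype and 4041 in E47KO livers alone, and to 1442 at 2-fold in E47KO livers. Genes whose difference depended on genotype numbered 0, 2 with DESeq2 and 0 to 3 with 1 liver left out (3 without wildtype Dex replicate 1: Abcc3, Rgs2 and Cldn14). With the replicate number as a block, 6790 genes differed. Deviations of same-numbered samples from their group means had correlations of -0.233 to 0.0903. The 2 wildtype Dex livers deviate as mirror images, so these correlations cannot decide whether the numbers pair the samples. No source used here states such a pairing, and the main test uses none. Among named genes that did not pass the test, Per1 turned to 0.17 under the block and Ighm to -0.45 in E47KO livers alone. Low depth in Dex libraries limits genes below about 1 CPM.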

Other observations

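Some classes of transcript stood apart from protein-coding genes. Of 449 processed pseudogenes tested, 235 were higher and 42 lower in Dex liver (median log2 fold change 0.91), where 3127 and 3401 of 13484 protein-coding genes were (median -0.03). Of 56 small nucleolar RNA genes 1 was higher and 15 were lower (median -0.50), and of 42 microRNA genes 16 were higher and 7 lower (median 0.64). The share of reads assigned between a pseudogene and its parent gene depends on read length, library type and the way reads are counted. Reads not counted in genes made up 31.1 to 36.8% in Dex and 20.8 to 22.85% in Cort libraries. The part of these in the difference was not tested.

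Sult3a1, a sulfotransferase of female liver, had no more than 3 counts in any Dex library. In Cort livers it ranged over 0 to 49.96 CPM (median 0.169), with the highest value in wildtype replicate 4, which was also the highest for Cyp2b9. The mean of the Cort livers was at least 41.9-fold higher than the level of 3 counts per Dex library, and the groups overlapped. Without wildtype replicate 4 the bound fell to 3.25-fold, so the difference rests on that liver. This omission was chosen after seeing the data. Cyp2b9 and Sult3a1 were thus near 0 in each Dex liver and differed by orders of magnitude among Cort livers of the same genotype.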
